A study of Mus musculus with 2 samples.

Results

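Tigit, Cd226, Cd96, Lag3, Havcr2, Lgals9, Pvr and Nectin2 encode 5 receptors of T and NK cells and 3 of the ligands of these receptors. They were chosen by gene symbol, and all 8 were present among the features counted in both libraries. No filter on low values was applied to their levels, so every one of the 8 is described.

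MC38, a mouse colon carcinoma line, was grown under the skin of C57BL/6 mice aged 6 to 8 weeks, and MSA-2, an agonist of the innate sensor STING that is not a nucleotide, was injected into the tumor. The tumors of 3 mice were pooled for each of 2 libraries, 1 labelled untreated and 1 labelled MSA-2, after 3 doses at intervals of 3 days and collection on day 7. The control is called untreated in the labels, while the series record names a vehicle of saline with 10% DMSO, so whether those tumors were injected is not settled here. The droplet assay captured the 3′ ends of polyadenylated RNA and tagged each molecule with a unique molecular identifier (UMI), and UMIs are the unit of every count below. The labels state neither genotype nor sex for the pooled animals.

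The untreated library held 14386 barcodes with 198135335 UMIs, and the MSA-2 library held 14617 barcodes with 204387165 UMIs. The cell numbers stated in the methods equal these barcode totals, and the methods call all of them immune cells. The methods also name a sort without stating what it kept, so the class sizes and the parts of a gene's UMIs by class describe the libraries and not the whole tumor. A total of 53 barcodes occurred in both libraries. After filters on gene number and mitochondrial share, and after removal of 705 and 570 called doublets, 13334 untreated and 13393 MSA-2 cells remained, with medians of 8298.5 and 9271 UMIs. Marker genes placed 12005 (90.0%) and 11883 (88.7%) of these cells in a single class, while 279 and 410 cells met more than 1 class and 1050 and 1100 met none. With 1 library per condition no spread between animals can be given, and all intervals are exact 95% intervals that cover counting error only.

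The classes differed greatly in size between the libraries, which sets how well each gene could be measured. Untreated T cells numbered 1216 and MSA-2 T cells 148, of which 714 and 86 were CD8 T cells. Regulatory T cells, gated by Foxp3 without regard to Cd4 or Cd8, numbered 82 and 8. Foxp3-negative Cd4-positive cells numbered 46 and 7. NK cells numbered 194 and 92, macrophages 3436 and 1107, monocytes 274 and 490, neutrophils 34 and 2552, and dendritic cells 226 and 16. Tumor cells numbered 6338 and 6746, fibroblasts 203 and 641, and endothelial cells 66 and 81, beside 18 and 10 pericytes. The label tumor cells thus matched 47.5% of the untreated cells, and 50.4% after MSA-2. In that class the keratins Krt8, Krt18, Krt7 and Krt19 were near 0, each in at most 1.06% of cells, and Krt14 was found in 15.8% and 6.63% and Ccn2 in 4.89% and 2.001% of cells, whereas Gng11, Ccn1 and Anxa1 were found in 92.1% to 99.8% of cells.

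The gates are ranges on a per-cell score, and cells near an edge were most frequent among pericytes, at 4 of 18 untreated and 3 of 10 MSA-2 cells, and next among monocytes, at 19.7% and 13.1%. The same share was 5.88% and 12.1% for macrophages and 4.89% and 5.13% for tumor cells. Unsupervised clusters built without the 8 genes placed most NK cells of both libraries in the same cluster (cluster 12). Neutrophils (24), dendritic cells (17) and endothelial cells and pericytes (19) also shared their largest cluster. In the remaining large classes it differed between untreated and MSA-2 cells: clusters 9 and 11 for all T cells, 16 and 11 for CD8 T cells, 4 and 7 for macrophages, 5 and 7 for monocytes, 3 and 14 for tumor cells and 18 and 20 for fibroblasts. The ratios between libraries in those classes therefore compare cells of different clusters.

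T and NK cells read ligands of the nectin family through a set of paired receptors: TIGIT inhibits, CD226 activates, and both compete with CD96 for PVR (CD155), while NECTIN2 (CD112) also binds TIGIT and CD226. TIM-3, the product of Havcr2, binds galectin-9, CEACAM1 and HMGB1 and is carried by exhausted T cells and by dendritic cells and macrophages of tumors, and LAG-3 binds MHC class II and restrains T cells that have met antigen for long. Galectin-9, the product of Lgals9, is a sugar-binding protein that is raised by interferons, and STING activation is known for its release of type I interferon.

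The 8 genes lie at 8 loci on 5 chromosomes of the mouse build GRCm38. Lag3 (ENSMUSG00000030124) lies on chromosome 6 at 124904361 to 124911705. Nectin2 (ENSMUSG00000062300, chromosome 7, 19716644 to 19750483) and Pvr (ENSMUSG00000040511, chromosome 7, 19903578 to 19921160) are close to each other on the minus strand. Havcr2 (ENSMUSG00000020399, 46454935 to 46481255) and Lgals9 (ENSMUSG00000001123, 78962974 to 78984946) lie on chromosome 11. Tigit (ENSMUSG00000071552, 43648867 to 43664146) and Cd96 (ENSMUSG00000022657, 46035657 to 46120251) lie on chromosome 16, and Cd226 (ENSMUSG00000034028, 89176967 to 89272229) lies on chromosome 18. No annotated gene overlapped any of them on the same strand, so the strand-aware counts have no same-strand neighbor to share reads with.

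The first question was which cells carry the receptors. Levels are in CPM, the summed UMIs of a gene in a class scaled to the summed UMIs of all genes there. In untreated tumors Lag3 was highest in CD8 T cells, at 62.4 CPM (53.7 to 72.1), above the other T cells at 37.6 CPM (26.9 to 50.9), and these intervals did not overlap. Foxp3-negative Cd4-positive cells (30.2 CPM), regulatory T cells (15.6 CPM), NK cells (12.9 CPM), dendritic cells (7.39 CPM) and macrophages (6.94 CPM) followed, each overlapping its neighbor. Tigit ran the other way within T cells. It was highest at 72.6 CPM (37.5 to 127) in Foxp3-negative Cd4-positive cells and 62.4 CPM (40.01 to 92.9) in regulatory T cells. CD8 T cells stood at 31.2 CPM (25.1 to 38.3). The CD8 interval overlapped that of the Foxp3-negative cells and not that of the regulatory cells.

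Cd226, the activating partner of Tigit, was highest in CD8 T cells at 107 CPM (95.3 to 119) and lowest among T cells in the regulatory class at 15.6 CPM (5.73 to 34.0), which overlapped the Foxp3-negative Cd4-positive cells. Cd96 stood at 69.2 CPM (60.01 to 79.3) in CD8 T cells and 53.5 CPM (40.6 to 69.2) in NK cells, with overlapping intervals, and at 13.01 CPM (4.22 to 30.4) in regulatory T cells. Regulatory T cells thus carried high Tigit with low Cd226 and Cd96. Of the UMIs of Tigit and Cd226 together, Tigit made up 80.0% (61.4 to 92.3) in untreated regulatory T cells. Its part was 57.1% (34.0 to 78.2) in Foxp3-negative Cd4-positive cells, 27.7% (17.3 to 40.2) in NK cells and 22.6% (18.6 to 27.0) in CD8 T cells. That order was read within 1 library, and the same share in MSA-2 cells was 28.6% (19.9 to 38.6) for CD8 T and 44.4% (21.5 to 69.2) for NK cells, both overlapping the untreated value.

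Havcr2, unlike the other receptors, was highest outside T and NK cells. In the untreated library it was highest in dendritic cells at 265 CPM (240.3 to 291) and monocytes at 218 CPM (190.1 to 248), whose intervals overlapped, then in CD8 T cells at 123 CPM (110.4 to 136), regulatory T cells at 114 CPM and macrophages at 107 CPM (103 to 112), which overlapped each other. By number of UMIs, macrophages held 50.2% of the Havcr2 UMIs of the untreated library and CD8 T cells 8.59%, whereas T cells of all kinds held 70.2% of Tigit, 68.8% of Cd226 and 68.2% of Cd96 UMIs. Lag3 lay between, with 38.2% of its untreated UMIs in T cells, 28.5% in tumor cells and 22.2% in macrophages. In untreated NK cells Havcr2 was at 2 UMIs, or 1.85 CPM (0.224 to 6.67), no higher than the 3.15 CPM of tumor cells. Tumor cells, fibroblasts and endothelial cells were at or below 5.03 CPM for all 5 receptors in both libraries.

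**Figure D1:**
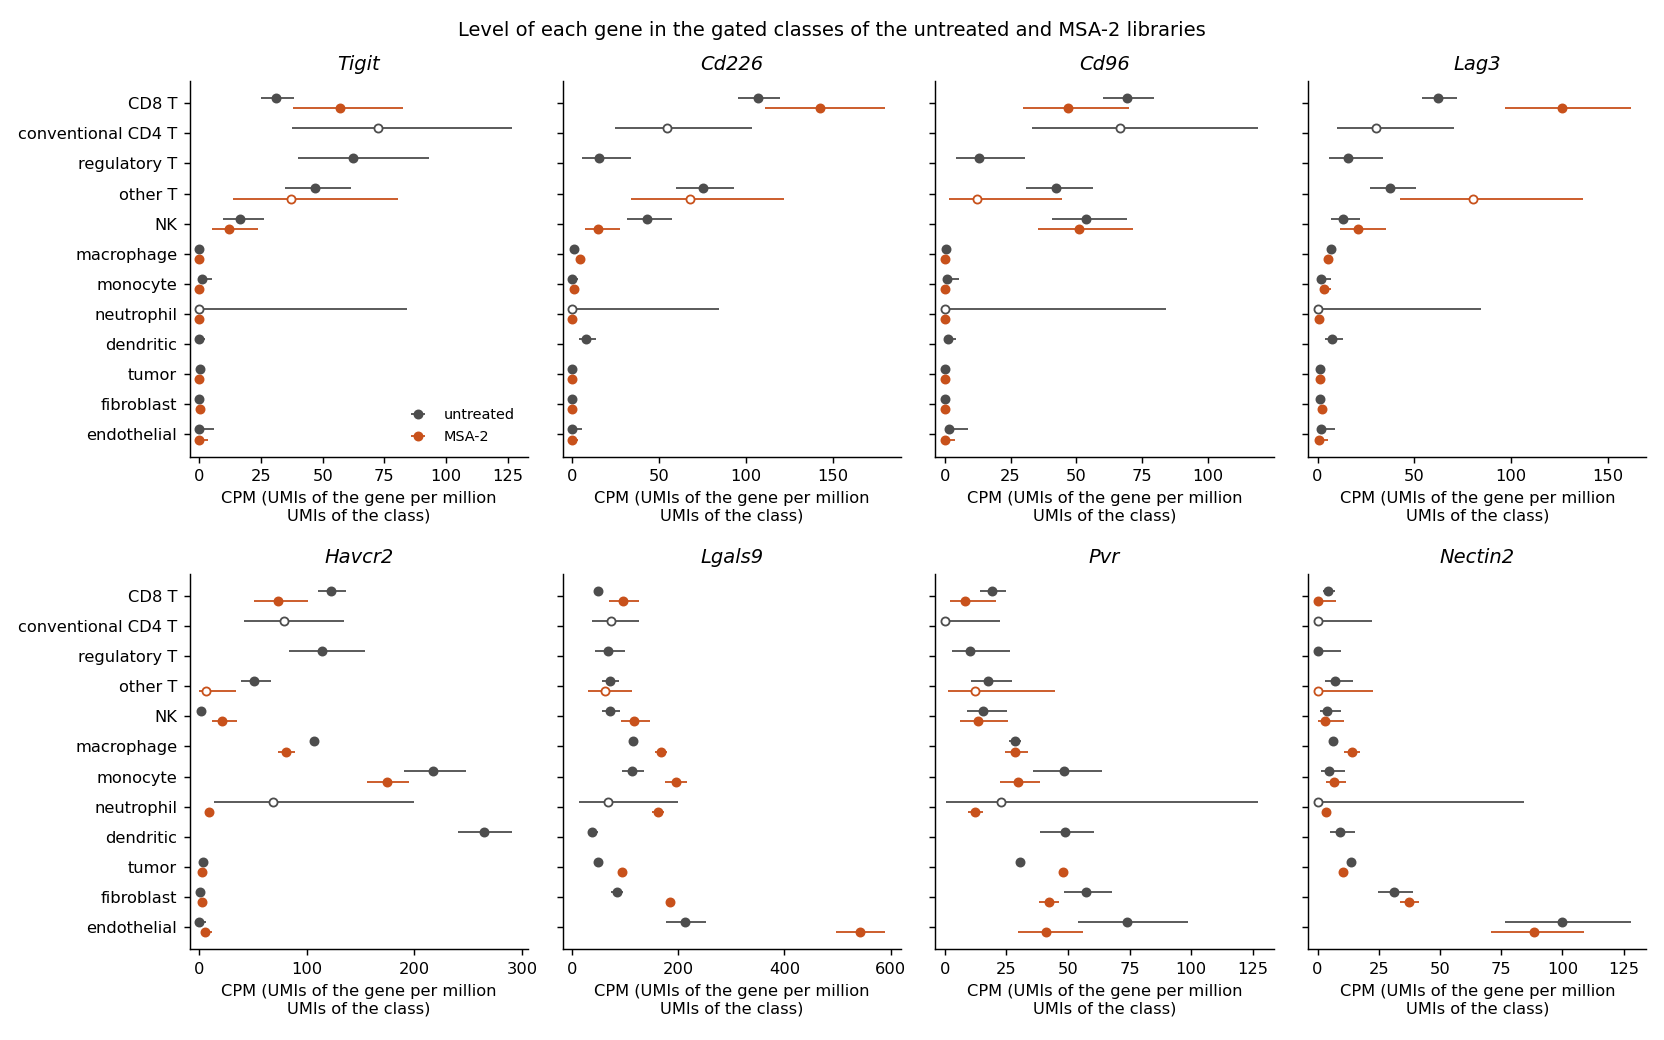
Levels of the 8 genes in CPM (horizontal axes) by class (vertical axis), untreated in grey and MSA-2 in orange, with exact Poisson intervals; open symbols mark classes of 20 to 49 cells and smaller ones are not drawn. Lgals9 of the MSA-2 library lies to the right in tumor cells, fibroblasts and endothelial cells, and Tigit, Cd226 and Cd96 are low outside T and NK cells.

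The second question was how the receptors differed in CD8 T cells after MSA-2. Lag3 stood at 62.4 CPM (184 UMIs) in untreated and 126 CPM (62 UMIs) in MSA-2 cells, a log2 ratio of MSA-2 over untreated of 1.02 (0.58 to 1.44). Tigit stood at 31.2 and 57.0 CPM (92 and 28 UMIs), a log2 ratio of 0.87 (0.20 to 1.49). Both inhibitory receptors were thus higher in the MSA-2 library. Havcr2 moved the other way, from 123 to 73.2 CPM (362 and 36 UMIs), a log2 ratio of -0.75 (-1.28 to -0.25). Cd226 stood at 107 and 142 CPM (315 and 70 UMIs), a log2 ratio of 0.41 whose interval of 0.02 to 0.79 barely left 0. Cd96 stood at 69.2 and 46.8 CPM, and its log2 ratio of -0.56 had an interval of -1.25 to 0.06 that held 0. The 5 receptors of CD8 T cells therefore did not shift as a block: Lag3, Tigit and Cd226 were higher, Havcr2 was lower, and no difference was detectable for Cd96.

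A feature was counted as past the fold when its log2 ratio, with 1 CPM added to both levels, was at least 1 either way, among features with at least 20 UMIs over both libraries of the class. Of the 7 genes counted in CD8 T cells, Lag3 was past the fold upward, by a narrow margin, and Pvr downward, with 56 and 4 UMIs and a log2 ratio of -1.22 (-3.15 to 0.21) that held 0. Nectin2 had too few UMIs. In that class 17.3% of all 9443 features counted were past it, so 2 of 7 is near the rate of the class. Over all T cells the 8 genes gave Lag3 upward and Nectin2 downward, beside 15.0% of all features. For Nectin2 the T cells held 20 UMIs in untreated and 0 in MSA-2 cells, and the exact upper limit of its log2 ratio, 0.37, lay above 0, so no difference was detectable. In the Foxp3-negative T cells with neither or both of Cd8 and Cd4, Lag3 rose from 37.6 to 80.3 CPM (41 and 13 UMIs), a log2 ratio of 1.10 (0.07 to 2.02), and Havcr2 fell from 51.3 to 6.17 CPM (56 UMIs and 1 UMI), a log2 ratio of -3.05 (-8.38 to -0.52). Lag3 was thus higher and Havcr2 lower in both of these T cell classes.

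The 8 regulatory T cells of the MSA-2 library were too few for most genes. Tigit fell from 24 UMIs to 0, which at this depth gives no bound below the untreated level. Havcr2 fell from 44 UMIs, or 114 CPM, to 0, and the upper limit of its log2 ratio was 0.18, so no difference was detectable there either. Lgals9 was at 26 and 3 UMIs there, a log2 ratio of 0.58 (-1.79 to 2.29), so no difference was detectable.

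Single cells were compared at equal depth, because the median CD8 T cell had 3606 UMIs without and 5305.5 with MSA-2. Each cell was thinned to 1500 UMIs, which left out 11 of 714 untreated and 3 of 86 MSA-2 CD8 T cells. After thinning, a Lag3 UMI was found in 7.82% (5.95 to 10.1) of untreated and 18.1% (10.5 to 28.0) of MSA-2 CD8 T cells, against 20.4% and 43.0% before thinning. In tumor cells, which should lack Lag3 and had medians of 19622 and 19408.5 UMIs, the thinned shares were 0.286% and 0.238%. The Lag3 difference was therefore present at equal depth, and both shares stood above those of tumor cells. Havcr2 was found in 14.7% (12.1 to 17.5) and 8.43% (3.46 to 16.6) of thinned CD8 T cells, against 28.3% and 30.2% unthinned, with 0.604% and 0.506% in thinned tumor cells.

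Tigit was less clear in shares than in sums. It was found in 4.84% (3.37 to 6.69) of thinned untreated and 4.82% (1.33 to 11.9) of thinned MSA-2 CD8 T cells, against 11.8% and 25.6% unthinned. The higher Tigit level of the MSA-2 CD8 T cells was not seen as a higher share of cells at equal depth. However, the thinned MSA-2 share rests on 4 of 83 cells and cannot resolve a difference. Thinned shares of Cd226 were 14.1% (11.6 to 16.9) and 16.9% (9.54 to 26.7), and those of Cd96 10.1% (7.97 to 12.6) and 7.23% (2.70 to 15.1), against 29.3% and 41.9% for Cd226 and 22.0% and 23.3% for Cd96 unthinned. In thinned tumor cells the shares of Tigit, Cd226 and Cd96 did not exceed 0.0636%. The intervals of Tigit, Cd226, Cd96 and Havcr2 overlapped between the libraries, and those of Lag3 did not.

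Co-detection asks whether the receptors meet in the same cell. After thinning, 63 of 703 untreated CD8 T cells, or 8.96% (6.95 to 11.3), and 7 of 83 MSA-2 cells, or 8.43% (3.46 to 16.6), carried UMIs of at least 2 of the 5 receptors. Before thinning these shares were 31.0% and 53.5%. The gap between the libraries was not seen at equal depth, but the thinned MSA-2 share rests on 7 cells and cannot resolve a difference. In NK cells 2 of 191 untreated and 0 of 91 MSA-2 cells carried at least 2 receptors after thinning, against 11.3% and 15.2% before. Among thinned untreated CD8 T cells Lag3 was found in 13.6% (7.63 to 21.8) of the 103 cells with a Havcr2 UMI and in 6.83% (4.95 to 9.16) of the 600 without. It was found in 15.1% (9.84 to 21.8) of the 152 cells with a UMI of Pdcd1, which encodes PD-1, and in 5.81% (4.01 to 8.10) of the 551 without. Havcr2 was about as frequent with Pdcd1 as without, at 15.1% (9.84 to 21.8) and 14.5% (11.7 to 17.7). These 2 pairs were picked out of all receptor pairs after seeing the values, and the 2 shares of the Havcr2 pair overlapped. Whether Lag3 and Havcr2 differ in their pairing with Pdcd1 was not tested. With 22 Pdcd1-positive cells in the MSA-2 library, of which 2 carried Lag3, against 13 of the 61 others, the same pairing was not seen there.

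**Figure D2:**
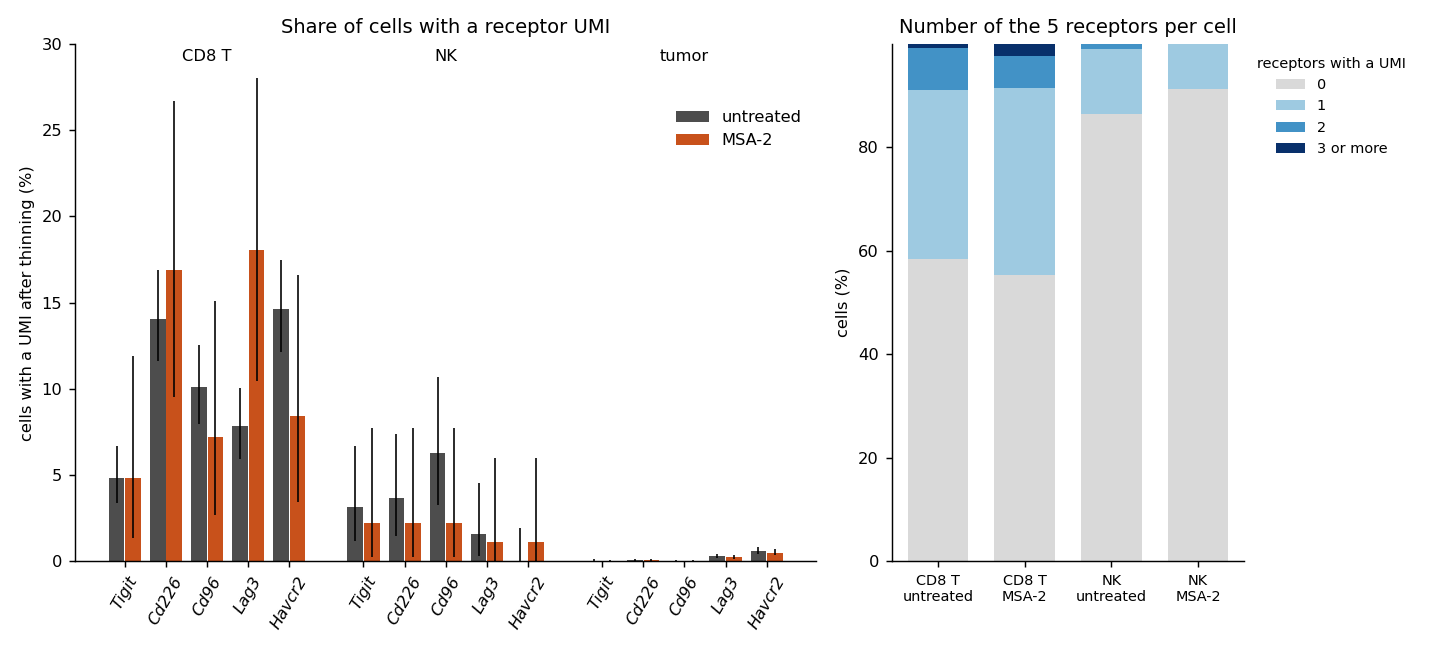
Left, share of cells (%) with a UMI of each receptor after thinning to 1500 UMIs in CD8 T, NK and tumor cells, untreated in grey and MSA-2 in orange, with exact Clopper-Pearson intervals; right, share of thinned cells (%) with UMIs of 0, 1, 2 or at least 3 of the 5 receptors. The Lag3 bars of CD8 T cells, 7.82% and 18.1%, are the 1 pair without overlap.

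NK cells use the same receptors without antigen, with CD226 as an activating and CD96 and TIGIT as restraining inputs. Cd226 was lower in NK cells of the MSA-2 library, at 43.4 CPM (47 UMIs) in untreated and 15.0 CPM (10 UMIs) in MSA-2 cells, a log2 ratio of -1.53 (-2.68 to -0.52). Cd96 stayed level, at 53.5 and 51.1 CPM (58 and 34 UMIs), a log2 ratio of -0.07 (-0.72 to 0.57). Tigit stood at 16.6 and 12.0 CPM (18 and 8 UMIs), a log2 ratio of -0.47 (-1.88 to 0.81), and Lag3 at 12.9 and 21.1 CPM (14 and 14 UMIs), a log2 ratio of 0.70 (-0.47 to 1.88), so no difference was detectable for either. Cd226 was the 1 gene past the fold among the 6 counted in NK cells (all but Havcr2 and Nectin2), beside 11.5% of all features. The fall in NK cells and the slight rise in CD8 T cells put Cd226 on opposite sides in the 2 lymphocyte classes, and that difference was not tested.

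By cell, Cd226 was found in 12.4% (8.09 to 17.8) of untreated and 6.52% (2.43 to 13.7) of MSA-2 NK cells before thinning, with median depths of 5083.5 and 6133 UMIs. After thinning, which left out 3 and 1 cells, the shares were 3.66% (1.49 to 7.41) and 2.20% (0.267 to 7.71), and they overlapped. Cd96 was found in 26.3% and 31.5% of NK cells before thinning and in 6.28% (3.29 to 10.7) and 2.20% (0.267 to 7.71) after. The thinned shares rest on 2 MSA-2 cells for each of these genes and cannot resolve a difference.

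Havcr2 in NK cells rose from 2 UMIs, or 1.85 CPM, to 14 UMIs, or 21.1 CPM (11.5 to 35.3), a log2 ratio of 3.51 (1.39 to 6.69), below the 20 UMIs needed to be counted. The 14 UMIs lay in 10 of 92 cells, with a median of 11587.5 UMIs, and in 1 of 91 cells after thinning. Of these 10 cells 8 carried Ncr1, an NK marker, and 7 carried the neutrophil gene S100a8, which was found in 41.5% of the other 82 NK cells. S100a8 rose from 0 to 60 UMIs in the NK class, and the median sum of the neutrophil markers of a cell was 0 and 3.45 CP10k (scaled within the cell). The macrophage markers moved the other way there, from a median of 4.03 to 1.26 CP10k. The monocyte markers rose from a median of 10.99 to 17.63 CP10k. That marker sum is not limited to monocytes, with medians of 80.69 CP10k in MSA-2 monocytes and 63.02 CP10k in MSA-2 fibroblasts. MSA-2 neutrophils carried Havcr2 at 9.36 CPM, which overlapped the NK level of that library, and MSA-2 monocytes at 175 CPM, above it, and the part of RNA from other cells in the NK value was not tested.

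**Figure D3:**
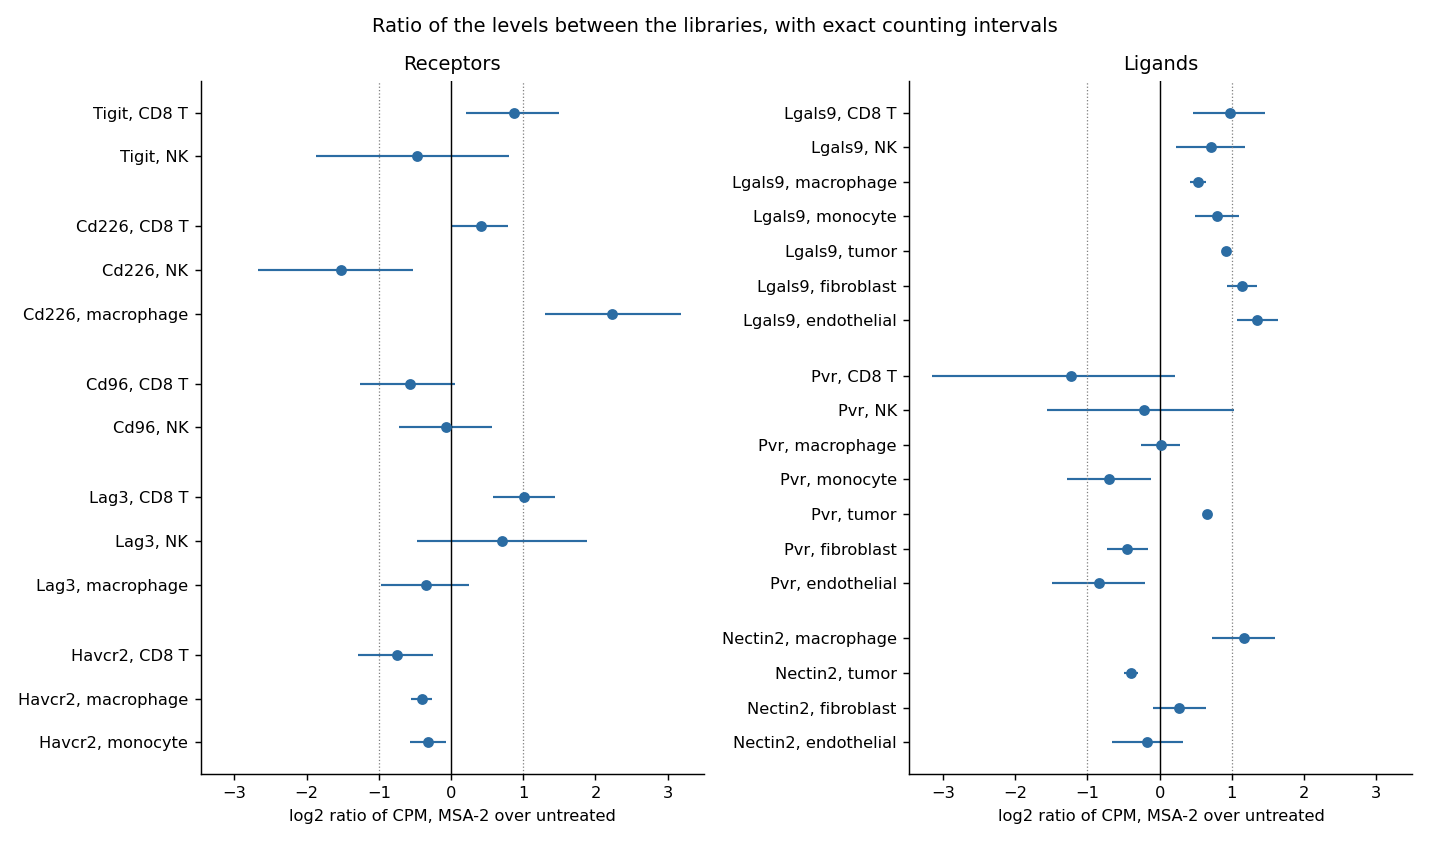
Log2 ratio of CPM, MSA-2 over untreated (horizontal axes), with exact conditional intervals, for receptors in CD8 T, NK and myeloid classes (left) and for ligands in the larger classes (right), each with at least 20 UMIs; dotted lines mark a log2 ratio of 1 either way. Lgals9 lies to the right of 0 in each class drawn, from 0.53 in macrophages to 1.35 in endothelial cells, while Pvr and Nectin2 lie on both sides.

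TIM-3 outside lymphocytes is carried by myeloid cells, where it restrains the sensing of nucleic acids. Havcr2 fell in macrophages from 107 to 80.7 CPM (2114 and 428 UMIs), a log2 ratio of -0.41 (-0.56 to -0.26). With classes taken from clusters that fall was not seen, but those clusters also held nearly all monocytes. In monocytes Havcr2 fell from 218 to 175 CPM (225 and 317 UMIs), a log2 ratio of -0.32 (-0.57 to -0.06). Within macrophages the level depended on the cluster: the main untreated cluster stood at 94.8 CPM (89.3 to 101) and the main MSA-2 cluster at 105.5 CPM (94.7 to 117), which overlap. A further cluster, number 8, was low in both libraries, at 30.9 CPM (13.3 to 60.9) without and 24.8 CPM (17.1 to 34.9) with MSA-2, and its cells were 46 of 3436 macrophages before and 210 of 1107 after MSA-2. The highest level was that of untreated cluster 5, at 127 CPM (119 to 136), which held 1273 untreated macrophages and under 30 MSA-2 macrophages. The lower class level in the MSA-2 library thus went along with more cells of a low cluster and fewer of a high one. In monocytes edgeR's TMM scaling, which shifts all ratios of that class by 0.31, put the log2 ratio at -0.01, so the direction there rests on the scaling.

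Dendritic cells of untreated tumors carried Havcr2 by kind: 389 CPM (327 to 459.8) in cDC1, 314 CPM (263 to 372) in cDC2 and 57.5 CPM (36.0 to 87.1) in mregDC. By cell, after thinning, which left out 1 cDC1 and 5 mregDC, a UMI was found in 40.5% (24.8 to 57.9) of cDC1, 27.3% (17.0 to 39.6) of cDC2 and 8.70% (3.26 to 18.0) of mregDC, beside 0.604% of tumor cells. The MSA-2 library held 16 dendritic cells, of which 12 were mregDC and 1 each were cDC1 and cDC2. In these cells 0 Havcr2 UMIs were found against 430 in untreated cells. The exact upper limit of the log2 ratio was -2.03, a fold of 0.245. With 3 counts as the floor of the empty library the class was 5.05-fold lower, a less cautious value than the exact limit. Since the kinds rich in Havcr2 were nearly absent, the class value compares different kinds of cell, and within mregDC the 22 untreated UMIs against 0 give no bound. In neutrophils Havcr2 was at 3 and 46 UMIs, or 68.5 and 9.36 CPM, a log2 ratio of -2.87 (-4.51 to -0.54) that TMM put at -1.79. With 34 untreated cells and 3 UMIs there, the class shows a level after MSA-2 and no firm difference.

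In macrophages UMIs of the receptors other than Havcr2 were few but not evenly spread. Cd226 stood at 0.962 CPM (19 UMIs) in untreated and 4.53 CPM (24 UMIs) in MSA-2 macrophages, a log2 ratio of 2.23 (1.30 to 3.18). Of the 24 MSA-2 UMIs, 20 lay in cluster 8, where the level was 15.1 CPM (9.20 to 23.2), and the untreated cells of that cluster stood at 11.6 CPM (2.39 to 33.9) from 3 UMIs. No difference within the cluster was detectable, and its share of the class was larger after MSA-2. Cluster 8 was also high in Mrc1, at 1298 and 781 CPM against 238 CPM in the main untreated and 275 CPM in the main MSA-2 cluster, and held 6 of 7 untreated and 17 of 17 MSA-2 UMIs of Timd4 in the class. Lag3 in macrophages stood at 6.94 and 5.47 CPM (137 and 29 UMIs), a log2 ratio of -0.34 (-0.97 to 0.24), and 85.4% of its untreated UMIs lay in the main cluster. The clusters were looked at after the class values had been seen.

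The third question was where the ligands of these receptors are made and how they differed after MSA-2. Lgals9 was found in every class of both libraries. In untreated tumors endothelial cells led at 213 CPM (178 to 252), apart from macrophages at 115 CPM (111 to 120.2), which overlapped monocytes at 113 CPM (93.6 to 136). Fibroblasts stood at 84.2 CPM (73.1 to 96.4), NK cells, overlapping them, at 72.0 CPM (56.9 to 89.8), and tumor cells at 49.6 CPM (48.5 to 50.8), overlapping CD8 T cells at 48.8 CPM (41.2 to 57.5). Dendritic cells were lowest at 38.2 CPM (29.3 to 48.9), overlapping CD8 T cells and, narrowly, tumor cells. Because tumor cells were the largest and deepest class, they held 64.3% of untreated and 71.2% of MSA-2 Lgals9 UMIs.

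The bases before the start of Lgals9 are shown because this gene rose in most classes at once, and those of Nectin2 because that ligand did not. The sequences are from a promoter table of RefSeq starts on GRCm38.p6 that held 5 of the 8 genes, so Lag3, Cd226 and Pvr were not searched, and each covers the 250 bases before the start on the minus strand, chr11:78984925-78985174 for Lgals9 and chr7:19749574-19749823 for Nectin2. The Nectin2 window lies inside the gene as GENCODE draws it, which begins further upstream at 19750483, so the bases before that start were not searched. Capitals mark a match to GAAA, any 2 letters and GAAA again, the core of the interferon-stimulated response element, searched on both strands.
Lgals9: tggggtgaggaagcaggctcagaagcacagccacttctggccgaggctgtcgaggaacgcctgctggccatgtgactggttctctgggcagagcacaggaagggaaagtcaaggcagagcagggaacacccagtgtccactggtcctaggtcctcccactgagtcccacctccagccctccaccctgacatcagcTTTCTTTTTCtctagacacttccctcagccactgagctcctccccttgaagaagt
Nectin2: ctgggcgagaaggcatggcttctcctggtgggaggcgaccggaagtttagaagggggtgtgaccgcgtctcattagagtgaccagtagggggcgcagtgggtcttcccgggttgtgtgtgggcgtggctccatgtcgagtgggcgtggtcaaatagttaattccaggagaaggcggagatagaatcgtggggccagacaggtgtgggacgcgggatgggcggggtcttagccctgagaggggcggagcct
The match in Lgals9 begins 55 bases before the RefSeq start and reads on the other strand, and a second match lies 16 bases after that start, beyond the letters shown. GENCODE draws the start of Lgals9 inside the window, at 78984946. The first match, at 78984970 to 78984979, lies upstream of both starts. Nectin2, Havcr2, Tigit and Cd96 held none in the same window, and 2.98% of 32851 promoters hold the letters in the 250 bases before the start. The palindrome TTCNNNGAA, bound by STAT factors, was found in the window of Cd96 and in that of no other of the 5 genes, beside 7.02% of all promoters. The matches are letters in a window and no binding was measured here.

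Lgals9 was higher in the MSA-2 library in endothelial cells, at 213 and 542 CPM (132 and 539 UMIs), a log2 ratio of 1.35 (1.07 to 1.64). In fibroblasts it stood at 84.2 and 185 CPM (208 and 1776 UMIs), a log2 ratio of 1.14 (0.93 to 1.35), and in tumor cells at 49.6 and 93.5 CPM (6866 and 14236 UMIs), a log2 ratio of 0.91 (0.87 to 0.96). The nonimmune classes thus rose together and endothelial cells stayed first. In monocytes it stood at 113 and 196 CPM, a log2 ratio of 0.79 (0.48 to 1.10), and in macrophages at 115 and 167 CPM, a log2 ratio of 0.53 (0.42 to 0.65). CD8 T cells stood at 48.8 and 95.6 CPM, a log2 ratio of 0.97 (0.46 to 1.45), and NK cells at 72.0 and 117 CPM, a log2 ratio of 0.70 (0.23 to 1.18). In these immune classes the tumor-cell gene Gng11 rose as well. It stood at 168 and 248 CPM in CD8 T cells and at 157 and 219.6 CPM in NK cells. In macrophages it stood at 164 and 277 CPM and in monocytes at 154 and 282 CPM. Gng11 was also higher in fibroblasts, at 351 and 632 CPM, and in the tumor cells themselves, at 1390 and 2208 CPM. In endothelial cells it stood at 1394 and 1634 CPM, and the untreated level was near that of tumor cells. Gng11 therefore cannot serve as a mark of tumor RNA in endothelial cells. The part of tumor RNA in the Lgals9 values was not tested. Each of these 7 intervals lay above 0, whereas those of neutrophils, dendritic cells and the other T cells held 0, with log2 ratios of 1.24, 0.46 and -0.21. MSA-2 neutrophils stood at 161 CPM (150.1 to 173) from 792 UMIs, and the 34 untreated neutrophils gave 3 UMIs, so that class shows a level and no difference.

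Shares of cells at equal depth were higher after MSA-2 without overlap in 4 of these 7 classes. A Lgals9 UMI was found in 18.8% (10.1 to 30.5) of untreated and 54.7% (42.7 to 66.2) of MSA-2 endothelial cells after thinning, which left out 2 and 6 cells, against 60.6% and 90.1% before, at medians of 7149.5 and 8677 UMIs. In fibroblasts the thinned shares were 12.1% (7.92 to 17.5) and 24.8% (21.5 to 28.4), against 57.1% and 81.0% before, with 5 and 17 cells left out. In tumor cells they were 8.08% (7.41 to 8.78) and 13.4% (12.6 to 14.3), against 56.7% and 75.3%, with 48 and 31 cells left out. No class here should lack Lgals9, so no background share can be set beside these. Macrophages had thinned shares of 14.7% (13.5 to 16.0) and 20.9% (18.4 to 23.5). The shares overlapped in CD8 T cells, at 7.11% (5.32 to 9.27) and 14.5% (7.70 to 23.9), in NK cells, at 11.5% (7.36 to 16.9) and 14.3% (7.83 to 23.2), and in monocytes, at 17.9% (13.5 to 23.0) and 22.4% (18.6 to 26.6). Among the tumor clusters of at least 100 cells, Lgals9 ran from 36.0 to 61.0 CPM without and from 76.5 to 127 CPM with MSA-2, so the ranges of the clusters did not overlap. The macrophage clusters of that size ran from 98.3 to 125.5 CPM without and from 105.6 to 234.8 CPM with MSA-2, and these ranges overlapped.

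In the other counts of genes past the fold the tumor class had 0 of 8, beside 4.44% of all features, although the Lgals9 ratio of 0.91 was close to the limit. Fibroblasts had 2 of 5 (Tigit, Cd226 and Cd96 not counted), Lgals9 and Havcr2 upward, beside 13.6%. The Havcr2 count rests on 1 untreated and 23 MSA-2 UMIs, a log2 ratio of 2.57 (-0.05 to 7.93). Its levels there were 0.405 and 2.40 CPM, beside 3.15 and 2.29 CPM in tumor cells. Endothelial cells had 1 of 3 (no receptor counted), Lgals9 upward, beside 12.5%, and macrophages 2 of 6 (Tigit and Cd96 not counted), Cd226 and Nectin2 upward, beside 10.1%. Of Havcr2, Lgals9 and Pvr, the 3 counted there, monocytes had 0, beside 22.6%, neutrophils 2, beside 68.8%, and dendritic cells 2, beside 43.7%. In neutrophils and dendritic cells the share of all features past the fold was so large, with 34 and 16 cells in the smaller library, that the counts of the genes say nothing about them.

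Pvr, which encodes the ligand shared by TIGIT, CD226 and CD96, was spread over nonimmune and myeloid cells. In untreated tumors it stood at 74.1 CPM (54.2 to 98.8) in endothelial cells, 57.4 CPM (48.4 to 67.7) in fibroblasts, 48.6 CPM (38.5 to 60.6) in dendritic cells and 48.4 CPM (35.9 to 63.7) in monocytes, each overlapping its neighbor, and at 30.5 CPM (29.6 to 31.4) in tumor cells. After MSA-2 it rose in tumor cells to 48.0 CPM (4219 and 7310 UMIs), a log2 ratio of 0.65 (0.60 to 0.71). It fell in endothelial cells to 41.2 CPM (46 and 41 UMIs), a log2 ratio of -0.85 (-1.49 to -0.21), in fibroblasts to 42.1 CPM (142 and 404 UMIs), a log2 ratio of -0.45 (-0.73 to -0.16), and in monocytes to 29.8 CPM (50 and 54 UMIs), a log2 ratio of -0.70 (-1.28 to -0.12). TMM put the ratio at -0.24 in fibroblasts and -0.40 in monocytes, and with that shift both intervals held 0, so these 2 falls rest on the scaling. Macrophages stayed level at 28.4 and 28.7 CPM, a log2 ratio of 0.02 (-0.25 to 0.28). The rise was thus found in tumor cells and not in the other large classes, and the order of the classes changed, with tumor cells above fibroblasts (no overlap) and endothelial cells (overlapping) in the MSA-2 library. The 16 dendritic cells of that library stood highest, at 122 CPM (49.2 to 252) from 7 UMIs. Their log2 ratio of 1.33 had an interval of -0.03 to 2.44 that held 0.

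Within dendritic cells Pvr was highest in mregDC, at 105 CPM (74.7 to 142) without and 177 CPM (71.1 to 364) with MSA-2, which overlap. In thinned tumor cells Pvr was found in 5.37% (4.83 to 5.96) of untreated and 8.19% (7.55 to 8.87) of MSA-2 cells, against 42.4% and 57.5% before thinning. The thinned share in CD8 T cells, 2.56% and 2.41%, is set beside these as that of a lymphocyte class. The falls in sums were not seen as falls in thinned shares without overlap: Pvr was found in 6.06% (3.17 to 10.3) and 6.25% (4.48 to 8.45) of fibroblasts, 7.81% (2.59 to 17.3) and 5.33% (1.47 to 13.1) of endothelial cells and 7.84% (4.92 to 11.7) and 3.85% (2.26 to 6.10) of monocytes. The tumor clusters overlapped more for Pvr than for Lgals9, with 20.8 to 43.9 CPM without and 25.3 to 79.7 CPM with MSA-2.

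Nectin2, the second nectin-family ligand of TIGIT and CD226, was highest in vessels. In untreated tumors it stood at 99.8 CPM (76.5 to 128) in endothelial cells, 31.2 CPM (24.6 to 38.9) in fibroblasts and 13.7 CPM (13.1 to 14.4) in tumor cells, with no overlap among these 3. After MSA-2 endothelial cells stood at 88.5 CPM, a log2 ratio of -0.17 (-0.66 to 0.32), and fibroblasts at 37.3 CPM, a log2 ratio of 0.26 (-0.10 to 0.64), so no difference was detectable in either. In tumor cells it fell to 10.5 CPM (1900 and 1595 UMIs), a log2 ratio of -0.39 (-0.49 to -0.29). In macrophages it rose from 6.23 to 14.0 CPM (123 and 74 UMIs), a log2 ratio of 1.16 (0.73 to 1.59). In the same macrophages the tumor-cell gene Gng11 rose from 164 to 277 CPM and the fibroblast gene Col1a1 from 31.9 to 78.5 CPM. In the tumor cells themselves Gng11 rose from 1390 to 2208 CPM, and in fibroblasts Col1a1 fell from 15436 to 7562 CPM. The part of RNA from other cells in the Nectin2 value was not tested. In thinned cells Nectin2 was found in 2.64% (2.26 to 3.07) and 1.67% (1.38 to 2.004) of tumor cells, and in 1.13% (0.796 to 1.55) and 2.06% (1.28 to 3.13) of macrophages, where 158 and 88 shallow cells were left out and the intervals overlapped. Unthinned, those shares were 24.4% and 19.4% of tumor cells and 3.38% and 6.05% of macrophages, at macrophage medians of 5588 and 4373 UMIs, beside 1.54% and 0% of CD8 T cells.

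The balance of the 2 nectin-family ligands of TIGIT moved in opposite ways. Of the UMIs of Nectin2 and Pvr together, Nectin2 was 31.1% (29.9 to 32.2) in tumor cells without MSA-2 against 17.9% (17.1 to 18.7) with it. In macrophages its part rose from 18.0% (15.2 to 21.1) to 32.7% (26.7 to 39.3), and in fibroblasts from 35.2% (28.8 to 41.9) to 47.0% (43.4 to 50.6). Endothelial cells kept the highest part, at 57.4% (47.5 to 66.9) and 68.2% (59.4 to 76.1), with overlapping intervals. The share counts molecules of both genes in the same cells, so it does not depend on the depth of a class.

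**Figure D4:**
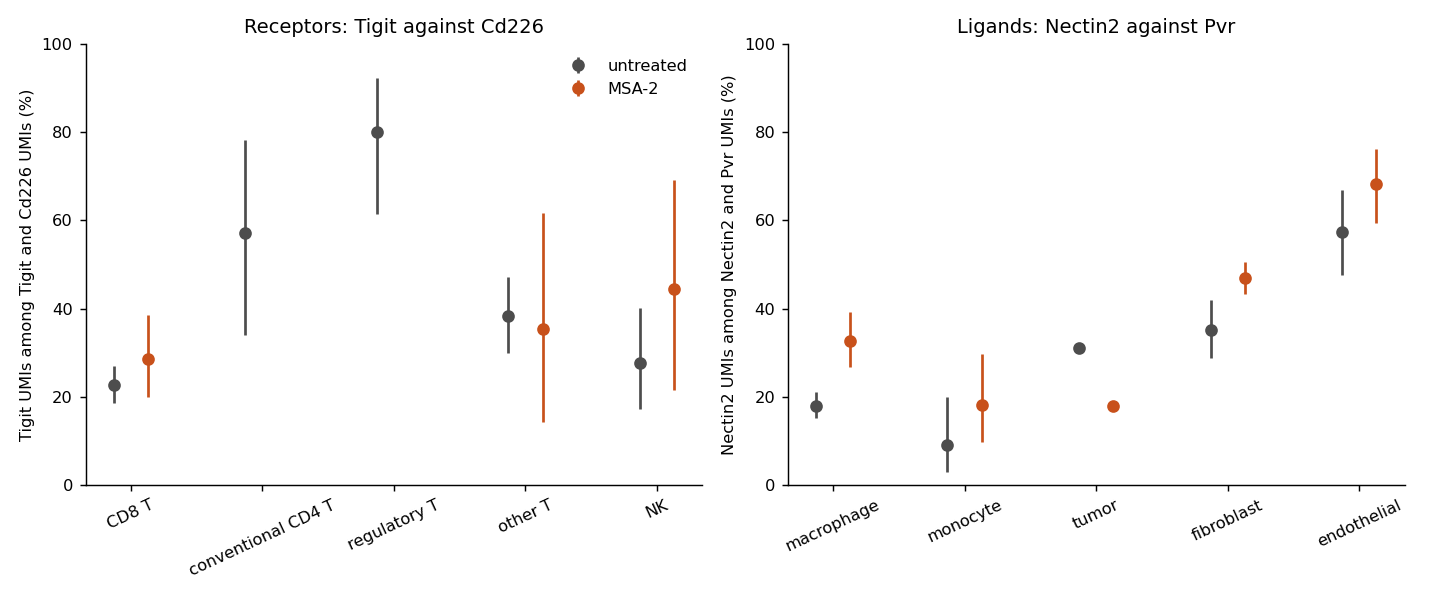
Left, Tigit UMIs as a share (%) of Tigit and Cd226 UMIs in T and NK classes; right, Nectin2 UMIs as a share (%) of Nectin2 and Pvr UMIs in classes with the ligands, for the untreated (grey) and MSA-2 (orange) libraries with exact Clopper-Pearson intervals, drawn from 10 UMIs on. Untreated regulatory T cells stand at 80.0% and CD8 T cells at 22.6%, and tumor cells fall from 31.1% to 17.9% on the right.

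A list of 32 further genes of these pathways gives the setting of the 8 genes. In CD8 T cells 22 of the 32 had enough UMIs, of which 1 was past the fold upward and 6 downward, beside 17.3% of all features, with a median log2 ratio of -0.38 beside -0.14 over all features. The gene past the fold upward was Prdm1, a factor of exhausted and effector cells, at 33.2 and 93.6 CPM, a log2 ratio of 1.49 (0.96 to 2.01). Those downward were Cadm1, the ligand of CRTAM, with 26 UMIs and 1 UMI and an interval of -7.47 to 0.49 that held 0, Inpp5d, a phosphatase recruited by inhibitory receptors, Nr4a2, a factor induced by antigen receptors, and the MHC class II genes H2-Aa, H2-Ab1 and H2-Eb1. Nr4a2 stood at 794 and 299 CPM, a log2 ratio of -1.41 (-1.66 to -1.17), and Inpp5d at 199 and 67.1 CPM, a log2 ratio of -1.57 (-2.12 to -1.06). Neither fall was limited to T cells, since tumor cells had -1.45 for Nr4a2 and -1.50 for Inpp5d, and fibroblasts -1.84 and -1.89. In tumor cells Nr4a2 stood at 245 and 89.8 CPM, but Inpp5d at only 5.60 and 1.98 CPM. The part of RNA from other cells in that Inpp5d value was not tested. Tox, a factor of exhaustion, stood at 428 and 767 CPM, a log2 ratio of 0.84 (0.67 to 1.01), and Pdcd1 at 194 and 218 CPM, a log2 ratio of 0.16 (-0.15 to 0.46), so no difference was detectable for Pdcd1. Ctla4 fell from 254 to 146 CPM, a log2 ratio of -0.79 (-1.16 to -0.44), so the genes of exhausted cells moved both ways beside Lag3.

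The MHC class II genes encode the ligand of LAG-3, and H2-Aa, H2-Ab1 and H2-Eb1 were past the fold downward in T, NK, tumor and endothelial cells, macrophages, monocytes and fibroblasts, beside 4.44% to 22.6% of all features past it either way. In CD8 T cells H2-Aa stood at 184 and 8.14 CPM, and the macrophage gene C1qa in the same cells at 171 and 34.6 CPM, and the part of RNA from other cells was not tested. In NK cells 20 of the 32 genes were counted, with Entpd1 and Prdm1 past the fold upward and Crtam, Tox, Inpp5d, Ptpn6 and the 3 class II genes downward, beside 11.5% of all features. Crtam, a receptor of the same family as CD96, stood at 61.8 and 28.6 CPM there, a log2 ratio of -1.11 (-1.93 to -0.36), and thus fell beside Cd226. Ceacam1, Havcr1, Fgl1 and Clec4g, further partners of TIM-3 and LAG-3 or relatives of TIM-3, had at most 1 UMI in CD8 T or NK cells, whereas Hmgb1 was at 509 and 669 CPM in CD8 T cells, a log2 ratio of 0.39 (0.22 to 0.57).

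The genes most like each of 7 of the 8, all but Pvr, are given over 18 profiles, each a class of at least 50 cells in 1 library, by Pearson's r of the log2 of CPM with 10 added, among 17177 features. The profiles share libraries and differ in depth, and r is a description of where a gene is found. For Lag3 these were 1700097N02Rik (r = 0.96), Cd226 (0.96) and Pdcd1 (0.95), for Tigit Cd2 (0.99), Tox (0.99) and Gm27162 (0.98), for Cd226 Gm43065 (0.96), Lag3 (0.96) and Klrc1 (0.95), and for Cd96 Dscam (0.99), Trbc1 (0.99) and Ctsw (0.98). For Havcr2 they were Stap1 (0.91), Itgb2 (0.90) and Mkrn1 (0.90). The 4 receptors besides Havcr2 followed genes that peak in T or NK cells, and Havcr2 followed genes that peak in monocytes or dendritic cells. For Lgals9 they were Uba7 (0.86), Gm26797 (0.84) and Gbp3 (0.82), each highest in MSA-2 endothelial cells as Lgals9 was, and for Nectin2 Col4a1 (0.96), Eng (0.95) and Fam171a1 (0.95). Among the 8 themselves, over the same 18 profiles, Lag3, Tigit, Cd226 and Cd96 had r of 0.84 to 0.96 with each other and Nectin2 and Pvr had 0.74, while Havcr2 reached 0.37 with Lag3 and less with the other 3.

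Over all cells of a library, the receptors fell and Lgals9 and Pvr rose. Lag3 stood at 618 and 377 UMIs, Tigit at 255 and 66, Cd226 at 599 and 186, Cd96 at 390 and 98, and Havcr2 at 4214 and 1501. T cells, the class with most UMIs of Tigit, Cd226 and Cd96 in the untreated library, numbered 1216 and 148, while the Havcr2 UMIs of macrophages stood at 2114 and 428. Lgals9 stood at 10686 and 20006 UMIs, Pvr at 5645 and 8696, and Nectin2 at 2372 and 2350.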

How the data were processed

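Single-cell RNA of 1 untreated and 1 MSA-2 library was measured with the 3′ v3.1 droplet chemistry. The authors made the deposited count matrices, raw UMI counts per barcode and gene, with Cell Ranger on mm10. The processing notes name its version as 7.0.0, and other places of the record give other versions. Seurat 4.3.0 is named for their later steps, while the methods of the paper name another version of it. Genes were found by symbol in the feature lists, as the rule for the named genes asks, and the members and lists were chosen with earlier results of these data known. Barcodes needed 500 genes or more and a mitochondrial share of 20% or less, and doublets called by Scrublet in scanpy 1.11.5 (0.8% per 1000 barcodes, seed 1) were removed within each library. Each cell was placed in a class by summed marker levels, with at least 2 marker genes and a minimum level. The gate values were set after seeing the data and were revised once, because the first values left many cells without a class and placed some cells of tumor clusters among T and dendritic cells. The 8 genes were not used as markers or for the clusters.

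Class levels are sums of UMIs, made within each library. Intervals are exact: Poisson for sums, Clopper-Pearson for shares and conditional binomial for ratios. With 1 library per condition no test was made. A gene at 0 was given a limit of 3 counts. For shares of cells random draws of 1500 UMIs per cell were used, without the cells that had fewer. Clusters (Leiden, resolution 1.5, on 3000 variable genes and 30 components, libraries not integrated) served as an alternative to the gates. Other alternatives were a stricter cell filter, doublets kept, 3 marker genes, the mean over cells, TMM factors of edgeR 4.0.16, 10 CPM added, and other UMI minimums. The plan was to compare them on ratios with 1 CPM added, which gave 28 of 351 ratios outside the interval. After these results were seen, this was changed to the plain ratio that the text prints, because the intervals belong to that ratio, and the number became 15. The intervals and the thinning were tested on simulated data. Positions are from GENCODE M21 (99.8% of feature identifiers matched) and promoters from RefSeq. Python 3.11.15, numpy 2.4.6, scipy 1.17.1, pandas 2.3.3, matplotlib 3.10.9 and R 4.3.3 were used. Protein sequences were not used here. The genes most like Pvr are not reported.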

Additional observations from a re-analysis of the deposited data

Results flagged for a closer look

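Among the classes with at least 20 UMIs of a gene over both libraries, 4 genes were picked out because the interval of their log2 ratio lay above 0 in 1 class and below 0 in another. Tigit had 0.87 in CD8 T cells and -1.67 in tumor cells, where it rests on 29 and 10 UMIs found in 0.458% and 0.148% of cells. The T cell gene Cd3g fell in the same tumor class from 485 to 63 UMIs and Cd3e from 137 to 25, and T cells numbered 1216 and 148. Cd226 had 2.23 in macrophages, from 19 and 24 UMIs, and -1.53 in NK cells. Nectin2 had 1.16 in macrophages and -0.39 in tumor cells. Pvr had 0.65 in tumor cells and -0.85 in endothelial cells. Havcr2 in NK cells, with 16 UMIs in all, was under that limit, and its log2 ratio of 3.51 there lay opposite to the -0.75 of CD8 T cells. The difference between the classes was not tested for any of these genes, and with 1 library per condition it cannot be told apart from differences between animals or between preparations.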

How the results depend on the processing

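Of 351 alternative log2 ratios of the 8 genes 336 stayed within the interval of the printed ratio, 15 moved out of it (28 with 1 CPM added, the form planned; the plain ratio was chosen after seeing the data) and 0 changed direction where that interval excluded 0. With classes taken from clusters the macrophage ratio was -0.02 for Havcr2 and 0.67 for Lgals9, but the clusters named macrophage also held nearly all monocytes (268, 150 and 333 in clusters 5, 6 and 7), so this compares other cells than the gate. With TMM factors the ratio was -0.01 for Havcr2 in monocytes, and in tumor cells 0.83 for Lgals9 and 0.57 for Pvr. TMM shifted the ratios of a class by 0.31 in monocytes, 0.21 in fibroblasts, 0.19 in endothelial cells, 1.08 in neutrophils and -0.38 in dendritic cells. With 10 CPM added the tumor ratios were 0.80 for Lgals9, -0.21 for Nectin2 and 0.52 for Pvr, and Nectin2 in macrophages had 0.56. The mean over cells gave 1.71 for Lgals9 in endothelial cells. The counts of genes past the fold were less stable, with 47 of 67 unchanged. In T cells the count was 1 with the stricter filter, 1 with 3 marker genes and 0 with 10 CPM added. In CD8 T cells it was 1 with the stricter filter, 1 with doublets kept, 1 with the mean over cells and 0 with 10 CPM added. In NK cells it was 2 with clusters. In macrophages it was 1 with clusters, 1 with the mean over cells and 0 with 10 CPM added. It was 1 in monocytes with TMM, and in dendritic cells 1 with doublets kept, 5 with clusters, 1 with the mean over cells and 1 with TMM. In fibroblasts doublets kept, clusters and 10 CPM added gave 1 each, and in endothelial cells the mean over cells gave 2. Counting features with at least 1 UMI raised the share of all features past the fold to 26.5% in CD8 T, 25.3% in NK and 33.7% in endothelial cells. Without thinning, cells with 2 or more receptors were 31.0% and 53.5% of CD8 T cells and 11.3% and 15.2% of NK cells. Thinning moved 114 of 144 shares of cells. Clusters gave no alternative for CD8 T cells, since clusters were named by main class, or for monocytes, and the stricter filter gave none for neutrophils. No paired analysis was possible because the 2 libraries come from different animals and share no animal, batch or replicate label beyond the number 1.

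The main limit is 1 library per condition, each a pool of 3 mice, so the intervals leave out differences between animals, preparations and runs. MSA-2 T cells were few. Neutrophil RNA was found in all MSA-2 classes, with S100a8 at 93.6 CPM in CD8 T cells against 0.678 CPM in untreated ones. The macrophage gene C1qa stood at 171 and 34.6 CPM there and the tumor-cell gene Gng11 at 168 and 248 CPM. In the tumor cells themselves Gng11 stood at 1390 and 2208 CPM. No correction for RNA from other cells was made. Levels of RNA say nothing about protein at the surface.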
